A study of Homo sapiens with 16 samples.

Results

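Ribosome footprints of untreated NCI-H1650 cells were compared with those of untreated Hs 936.T cells, using the 4 libraries whose titles give these lines and DMSO, of 16 libraries in the series. NCI-H1650 is an established human lung adenocarcinoma line known for an activating EGFR mutation, and Hs 936.T is an established human melanoma line. Both are labelled wild type, and both received only the solvent DMSO for 30 min. Each line gave 2 DMSO libraries. In ribosome profiling, RNase I digests the mRNA that is not covered by a ribosome and the covered pieces are sequenced, so a footprint count follows both the amount of an mRNA and how densely it is translated. No matched RNA-seq was used here, and mRNA level and translation cannot be told apart. The labels name no separate cultures, so p-values measure the spread between libraries of a line, which may be technical. That spread was estimated over all 8 DMSO libraries of the series.

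The rest of the series holds DMSO libraries of the lung line NCI-H520 and the melanoma line A375, and 1 library per line and dose of rocaglamide A (RocA), an inhibitor of the helicase eIF4A, at 0.3 and 3 µM. Genes were named from the coding lengths of neighbouring transcript entries, which gave 15776 named genes, of which 10549 passed the filter on low counts and were tested. All levels are CPM, the count of a gene scaled to a common library total over the tested genes, and every fold change is NCI-H1650 over Hs 936.T. Calls are from the quasi-likelihood test of edgeR with a Benjamini-Hochberg adjusted p under 0.05.

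Epithelial cells of the lung hold together through cadherin, claudin and desmosome proteins and fill their cytoplasm with keratin filaments. Melanoma cells come from the neural crest, and most keep part of the pigment cell programme, in which the transcription factor MITF drives the enzymes and structural proteins of the melanosome. Cells that sense type I interferon switch on a common set of antiviral genes through a complex that includes STAT2 and IRF9.

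Named-gene totals were 806316 and 792529 footprints in the NCI-H1650 libraries, and 3414804 and 2933182 in the Hs 936.T libraries. Small differences were therefore limited by the depth of NCI-H1650. The 2 libraries of a line differed 1.48 (NCI-H1650) and 1.49 (Hs 936.T) times as much as counting error alone would give (chi-square per degree of freedom). For 6 genes with at least 200 CPM in both NCI-H520 DMSO libraries, under 4 CPM in the melanoma DMSO libraries and no count in the NCI-H1650 library at 3 µM, the median level was 5.89% of that in NCI-H520 in replicate 1 and 1.06% in replicate 2. Both these genes and those of the next comparison were picked from their measured levels. CPM and shares in these comparisons used totals over all named genes without TMM scaling, so their scale differs somewhat from levels elsewhere. The NCI-H1650 library at 0.3 µM RocA held the same genes at 8.34%. In the other direction, 15 genes with at least 200 CPM in both Hs 936.T DMSO libraries and under 4 CPM in A375 had medians of 0.594% and 0.359% of the Hs 936.T level in the NCI-H1650 libraries. Levels of Hs 936.T genes near those shares in NCI-H1650 are read as no more than traces. Pigment cell genes such as DCT and TRPM1 meet the rule that picked the 15, so for them the share is no separate yardstick. The NCI-H520 DMSO libraries, used for the spread, held the same 15 at 4.25% and 8.71%. Without those libraries, 7160 of 7183 main calls still tested were called in the same direction.

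The lines differed at most genes. Of 10549 tested genes, 3724 were called higher in NCI-H1650 (35.3%) and 3546 lower (33.6%), 68.9% in all, and counts of list members below are set against these shares. Both libraries of NCI-H1650 lay above both of Hs 936.T for 42.0% of tested genes and below both for 41.7%. Calls of at least 2-fold numbered 2793 higher (26.5%) and 2256 lower (21.4%). The median log2 fold change over all tested genes was 0.01. No footprint was counted in either Hs 936.T library for 407 genes that had more than 3 in NCI-H1650, and the reverse held for 195 genes. Such genes are given as a lower bound, taken against a floor of 3 counts over the pair of libraries (0.495 CPM in Hs 936.T and 1.73 CPM in NCI-H1650). Where a line had 1 to 3 counts, the ratio is given with its 95% counting interval. Bounds and intervals cover counting error only.

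The 15 genes with the largest fitted rises in NCI-H1650, among called genes averaging at least 10 CPM with no overlap between lines, were mostly epithelial. Keratin genes KRT19, KRT7, KRT8 and KRT80 were among them, with SPINT2 and ST14, an inhibitor of epithelial serine proteases and a membrane protease it controls. CLDN7 and CD24 code for epithelial surface and junction proteins. ALPP, the placental alkaline phosphatase, stood at 1326 and 1321 CPM in NCI-H1650, against 0 and 0 CPM in Hs 936.T (at least 2670-fold higher, adjusted p = 4.14e-15). Its near-identical neighbour ALPG stood at 860.2 and 809 CPM in NCI-H1650, against 0 and 0 CPM in Hs 936.T, and the counting could split reads between these copies. CLCA2, a chloride channel regulator of stratified epithelia, was at least 962-fold higher. CYP1B1, a cytochrome P450 induced through the aryl hydrocarbon receptor, was at least 732-fold higher and STEAP4, a metalloreductase, at least 558-fold. The interferon-induced gene IFI27 was also among them.

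The 15 genes with the largest fitted falls had no footprint in either NCI-H1650 library. A count of 0 makes the fitted change large, so both rankings favour such genes over those with a few counts. DCT, with 3 counts in NCI-H1650, was 459-fold lower and is not among the 15. TRPM1 and OCA2 are pigment cell genes. TRPM1, a cation channel of melanocytes and retina, stood at 0 and 0 CPM in NCI-H1650, against 409 and 438 CPM in Hs 936.T (at least 244-fold lower, adjusted p = 1.38e-28). CA14, a carbonic anhydrase, was at least 42.9-fold lower, and BIRC7, the melanoma-associated inhibitor of apoptosis ML-IAP, at least 77.9-fold. LZTS1 was at least 163-fold lower and TRPV2, a cation channel, at least 99.8-fold. RENBP (renin-binding protein), SLC6A15 (a neutral amino acid transporter), LXN (latexin), NDN (necdin, an imprinted neural gene), TRIM63 (the ubiquitin ligase MuRF1), PLAT (tissue plasminogen activator), TDRD1 (a germline piRNA factor), SPESP1 and RAB3C were at least 35.7-fold to 88.4-fold lower.

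**Figure D1:**
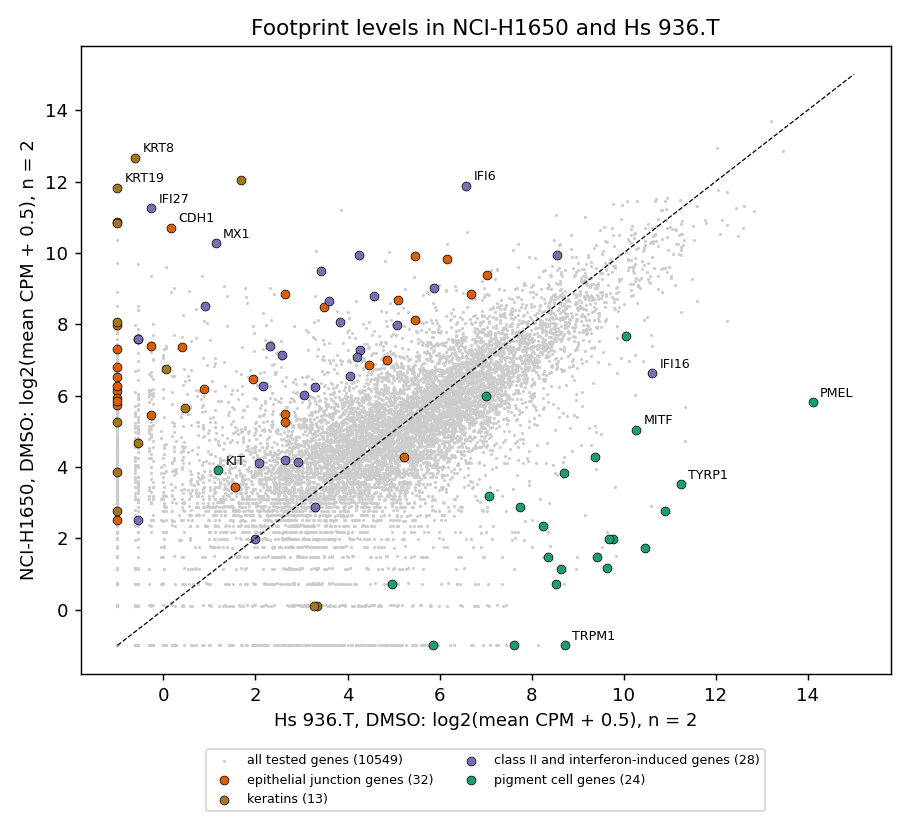
Mean footprint level of each of 10549 tested genes, as log2(mean CPM + 0.5), in NCI-H1650 (y axis) and Hs 936.T (x axis), n = 2 libraries each; the dashed line marks equal levels. Keratin, junction and interferon-induced genes lie above the line and pigment cell genes below it, apart from KIT above it and IFI16, DST and the keratins KRT81 and KRT86 below it; the class II genes HLA-DPA1 and HLA-DPB1 lie close to the line.

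Pigment cell genes separated the lines in the direction of Hs 936.T. Of 30 listed genes, 24 were named and tested, of which 23 were called lower in NCI-H1650 and 1, KIT, higher. The median log2 fold change was -7.78, or -6.96 with genes at 0 set at their bounds. Pigment cell genes took 0.0541% and 0.0452% of named footprints in NCI-H1650, against 3.05% and 3.16% in Hs 936.T. Each library is a bulk sample, so fewer cells with a transcript and less of it per cell cannot be told apart.

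The promoters of 3 of these genes are shown because each holds the sequence TCATGTG, an element that MITF is known to bind, in the 250 bases before the RefSeq start (build GRCh38.p14, 5′ to 3′ on the strand of the gene; capitals mark the element, read on either strand):
TYR, chr11:89177625-89177874, plus strand: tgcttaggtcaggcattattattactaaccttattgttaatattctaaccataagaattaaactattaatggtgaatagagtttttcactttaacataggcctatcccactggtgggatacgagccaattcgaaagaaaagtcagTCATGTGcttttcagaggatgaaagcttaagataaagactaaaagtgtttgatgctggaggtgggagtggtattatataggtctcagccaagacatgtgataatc
TYRP1, chr9:12693135-12693384, plus strand: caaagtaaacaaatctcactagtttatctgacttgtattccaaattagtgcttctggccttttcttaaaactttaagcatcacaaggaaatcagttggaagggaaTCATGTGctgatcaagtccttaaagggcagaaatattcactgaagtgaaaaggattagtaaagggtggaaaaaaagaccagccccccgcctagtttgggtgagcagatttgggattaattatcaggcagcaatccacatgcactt
GPR143, chrX:9765848-9766097, minus strand: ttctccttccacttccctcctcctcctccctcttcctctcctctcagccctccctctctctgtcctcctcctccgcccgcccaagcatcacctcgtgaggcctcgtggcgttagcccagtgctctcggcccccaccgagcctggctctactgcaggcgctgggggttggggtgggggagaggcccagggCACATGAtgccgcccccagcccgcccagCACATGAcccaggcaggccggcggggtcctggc
Over windows of 300 bases, which add 50 bases after the start, TCATGTG was found on either strand in 6 of the 24 promoters matched to the list by symbol (GPNMB, GPR143, SLC24A5, TSPAN10, TYR and TYRP1), and in 2.99% of 27305 promoters in the table. The shorter CATGTG, which lies within it, was found in 10 of the 24 and in 11.2% of all. A match describes the sequence and is no evidence of binding.

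Of the regulators, MITF, the master transcription factor of the lineage, stood at 27.3 and 37.5 CPM in NCI-H1650, against 1281 and 1199.6 CPM in Hs 936.T (log2 fold change -5.26 ± 0.175 (SE), adjusted p = 1.18e-18). PAX3, which activates MITF in the neural crest, stood at 0 and 0 CPM in NCI-H1650, against 58.3 and 56.5 CPM in Hs 936.T (at least 33.2-fold lower, adjusted p = 2.86e-15). TFAP2A, a factor also used in epithelia, differed least among the genes called lower, at 70.5 and 55.1 CPM in NCI-H1650, against 135 and 122 CPM in Hs 936.T (log2 fold change -1.03 ± 0.162 (SE), adjusted p = 2.32e-07). MITF and PAX3 values do not overlap between lines, and the NCI-H1650 level of MITF lies above the trace share.

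Among the enzymes, tyrosinase (TYR), which starts melanin synthesis, stood at 4.55 and 2.34 CPM in NCI-H1650, against 864 and 886 CPM in Hs 936.T (log2 fold change -7.96 ± 0.327 (SE), adjusted p = 1.68e-11). TYRP1 stood at 14.8 and 7.03 CPM in NCI-H1650, against 2475 and 2374 CPM in Hs 936.T (log2 fold change -7.78 ± 0.495 (SE), adjusted p = 1.16e-04, and -8.44 without NCI-H1650 replicate 1). Dopachrome tautomerase, DCT, stood at 0 and 3.52 CPM in NCI-H1650, against 781 and 809 CPM in Hs 936.T (459-fold lower, with a counting interval of 157 to 2220, adjusted p = 1.10e-07). In NCI-H1650 these 3 enzymes were at or near the trace share of the Hs 936.T level, though DCT is among the genes that set that share.

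PMEL, which forms the fibrils on which melanin is laid down, stood at 63.6 and 48.1 CPM in NCI-H1650, against 17301 and 18001 CPM in Hs 936.T (log2 fold change -8.30 ± 0.664 (SE), adjusted p = 3.28e-04). The lines did not overlap, and the NCI-H1650 values are near the trace share. The melanosome transporters SLC45A2, SLC24A5 and OCA2 were lower too. SLC45A2 stood at 9.09 and 3.52 CPM in NCI-H1650, against 1909.8 and 1908 CPM in Hs 936.T, and SLC24A5 at 5.68 and 0 CPM in NCI-H1650, against 1409 and 1438 CPM in Hs 936.T. OCA2 was at least 113-fold lower. The melanosome receptor GPR143 stood at 2.27 and 2.34 CPM in NCI-H1650, against 329 and 321 CPM in Hs 936.T (log2 fold change -7.10 ± 0.285 (SE), adjusted p = 5.25e-27). GPNMB, a melanosome and lysosome glycoprotein, kept a sizeable level in NCI-H1650, at 215 and 189 CPM in NCI-H1650, against 1090.4 and 1043 CPM in Hs 936.T (log2 fold change -2.40 ± 0.286 (SE), adjusted p = 0.00107).

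Surface and transport genes of the lineage followed. EDNRB, the endothelin receptor of melanoblasts, stood at 4.55 and 2.34 CPM in NCI-H1650, against 800.3 and 837 CPM in Hs 936.T (log2 fold change -7.86 ± 0.239 (SE), adjusted p = 2.46e-28). The melanocortin receptor MC1R stood at 2.27 and 0 CPM in NCI-H1650, against 28.7 and 32.7 CPM in Hs 936.T. MLPH and RAB38, which move and supply melanosomes, had log2 fold changes of -4.92 and -4.94. KIT, the receptor of stem cell factor, was higher in NCI-H1650 at low levels, with 11.4 and 17.6 CPM in NCI-H1650, against 2.16 and 1.42 CPM in Hs 936.T (log2 fold change 2.95 ± 0.526 (SE), adjusted p = 3.22e-06). SOX10, MLANA, S100B and RAB27A of the list were not among the named genes.

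**Figure D2:**
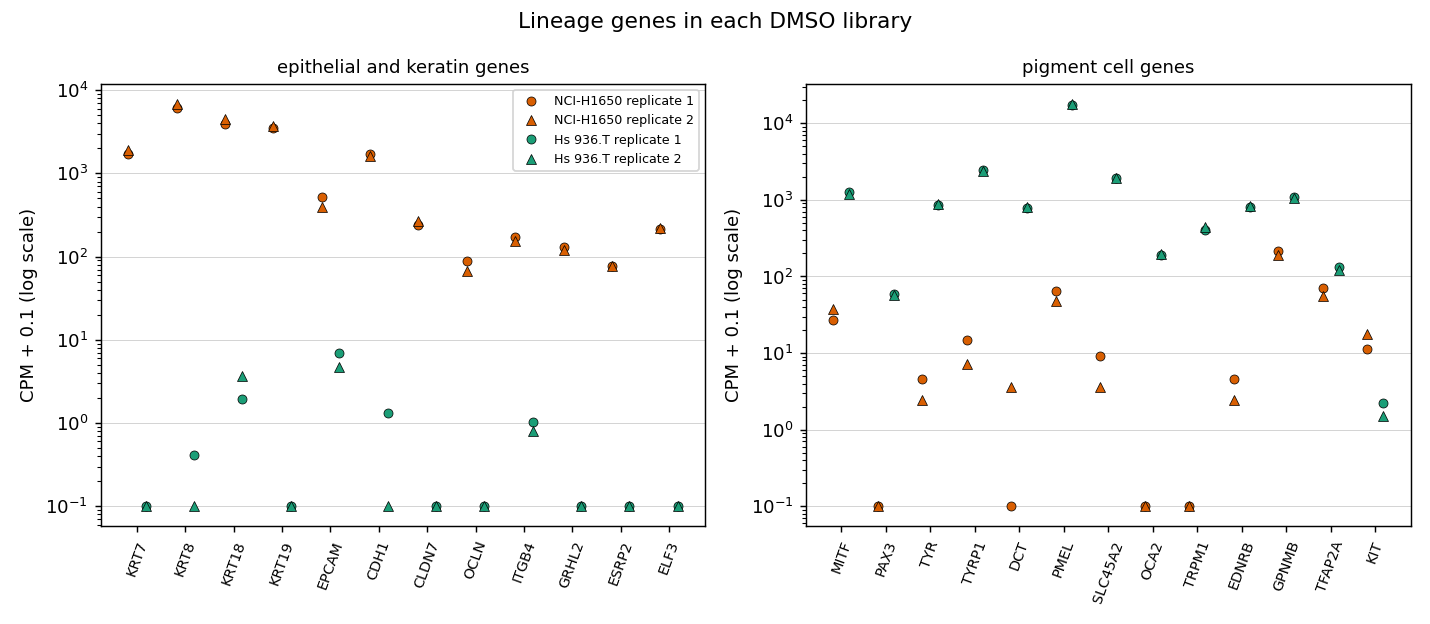
Footprint level of lineage genes in each DMSO library, as CPM + 0.1 on a log scale, with NCI-H1650 left of Hs 936.T for each gene; circles are replicate 1 and triangles replicate 2. The replicates of a line lie close together except at a few counts, and the lines do not overlap for any gene shown.

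Keratins, the intermediate filaments of epithelia, were named for 14 of 18 listed genes and tested for 13, of which 11 were called higher in NCI-H1650 and 2 lower. Their median log2 fold change was 7.87, or 6.79 with bounds. The keratins of simple epithelia were abundant. KRT8 stood at 6148 and 6880.0 CPM in NCI-H1650, against 0.309 and 0 CPM in Hs 936.T, and its filament partner KRT18 at 3952 and 4471 CPM in NCI-H1650, against 1.85 and 3.55 CPM in Hs 936.T. KRT19 stood at 3542 and 3708 CPM in NCI-H1650, against 0 and 0 CPM in Hs 936.T (at least 7320-fold higher, adjusted p = 6.70e-45) and KRT7 at 1712 and 1933 CPM in NCI-H1650, against 0 and 0 CPM in Hs 936.T (at least 3680-fold higher, adjusted p = 9.17e-22). A single KRT8 footprint in Hs 936.T makes its ratio imprecise, 39400-fold higher, with a counting interval of 7080 to 1560000, adjusted p = 8.21e-48. Per 1000 codons, KRT8 averaged 13740 CPM in NCI-H1650, above VIM (vimentin, the mesenchymal filament) at 56.6 CPM. The annotated spans of KRT8 and KRT18 overlap on opposite strands. In Hs 936.T, VIM averaged 5683 CPM per 1000 codons and KRT8 0.326 CPM.

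Keratins of basal and stratified epithelia were also present in NCI-H1650, at lower levels. KRT16 stood at 98.9 and 115 CPM in NCI-H1650, against 0 and 1.07 CPM in Hs 936.T, and KRT17 at 50 and 49.2 CPM in NCI-H1650, against 0 and 1.78 CPM in Hs 936.T. KRT15 was at least 76.9-fold higher and KRT5 at least 28-fold. KRT81 and KRT86, hair keratins whose near-identical sequences could share reads, were the keratins called lower, with KRT81 at 1.14 and 0 CPM in NCI-H1650, against 8.64 and 10.7 CPM in Hs 936.T.

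All 7 tested genes of the 14 on the squamous list, which shares KRT5 and KRT14 with the keratins, were called higher. SFN, the 14-3-3 sigma protein of epithelia, stood at 422 and 532 CPM in NCI-H1650, against 1.23 and 0 CPM in Hs 936.T (log2 fold change 9.37 ± 0.26 (SE), adjusted p = 1.43e-30, and 12.86 without Hs 936.T replicate 1 or 8.52 without Hs 936.T replicate 2). The desmosomal genes DSG3, DSC3 and PKP1 and the keratin-binding TRIM29 completed it with KRT5 and KRT14. TRIM29 stood at 73.9 and 102 CPM in NCI-H1650, against 0 and 0 CPM in Hs 936.T (at least 177-fold higher, adjusted p = 1.23e-21). The squamous markers TP63 and SOX2 were not among the tested genes.

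Epithelial junction genes were named and tested for 32 of 36 listed, with 31 called higher in NCI-H1650 and 1, DST, lower. Their median log2 fold change was 6.38, or 6.01 with bounds. Junction genes took 1.10% and 1.08% of named footprints in NCI-H1650, against 0.053% and 0.0518% in Hs 936.T. E-cadherin, CDH1, the main adhesion protein of epithelia, stood at 1706 and 1641 CPM in NCI-H1650, against 1.23 and 0 CPM in Hs 936.T (log2 fold change 11.18 ± 0.201 (SE), adjusted p = 4.57e-41, and 14.67 without Hs 936.T replicate 1 or 10.34 without Hs 936.T replicate 2). EPCAM, an epithelial adhesion protein, stood at 527 and 392 CPM in NCI-H1650, against 6.79 and 4.62 CPM in Hs 936.T (log2 fold change 6.30 ± 0.178 (SE), adjusted p = 1.74e-28). The lines did not overlap in either of these genes.

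Tight junction genes split by how exclusive they were. CLDN7, CLDN1, OCLN, TJP3 and MARVELD3 had no footprint in Hs 936.T and were at least 107-fold to 512-fold higher. The scaffold protein TJP1, which many cell types use, had a log2 fold change of 2.18. Desmosome and hemidesmosome genes followed the same pattern. PKP3 stood at 84.1 and 99.6 CPM in NCI-H1650, against 0 and 0 CPM in Hs 936.T (at least 185-fold higher, adjusted p = 2.03e-23), and ITGB4, the hemidesmosome integrin, at 170.4 and 155 CPM in NCI-H1650, against 0.926 and 0.71 CPM in Hs 936.T (log2 fold change 7.52 ± 0.292 (SE), adjusted p = 1.39e-27). COL17A1, a hemidesmosome collagen, was at least 319-fold higher. Desmoplakin, DSP, was translated in both lines, with 320.4 and 232 CPM in NCI-H1650, against 44.7 and 42.6 CPM in Hs 936.T (log2 fold change 2.66 ± 0.16 (SE), adjusted p = 3.81e-15). DST (dystonin) stood at 26.1 and 11.7 CPM in NCI-H1650, against 31.5 and 42.6 CPM in Hs 936.T (log2 fold change -0.95 ± 0.292 (SE), adjusted p = 0.00416, and -1.67 without NCI-H1650 replicate 1). It was not called without NCI-H1650 replicate 2 (-0.49) or Hs 936.T replicate 2 (-0.72).

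Epithelial regulator and surface genes were named for 22 of 29 listed and tested for 21, with 19 called higher, 1 lower and 1 not called. The median log2 fold change was 8.36, or 6.80 with bounds. Transcription factors GRHL2 and ELF3, which maintain epithelial identity, had no footprint in Hs 936.T. GRHL2 stood at 132 and 118 CPM in NCI-H1650, against 0 and 0 CPM in Hs 936.T (at least 253-fold higher, adjusted p = 3.20e-24) and ELF3 at 212 and 219 CPM in NCI-H1650, against 0 and 0 CPM in Hs 936.T (at least 436-fold higher, adjusted p = 6.77e-30). The splicing regulators ESRP1 and ESRP2 differed in degree. ESRP2 was at least 154-fold higher, whereas ESRP1 stood at 151 and 150.1 CPM in NCI-H1650, against 34.2 and 25.6 CPM in Hs 936.T (log2 fold change 2.32 ± 0.162 (SE), adjusted p = 1.17e-17). Mucin MUC1 stood at 211 and 199 CPM in NCI-H1650, against 0 and 0.71 CPM in Hs 936.T (622-fold higher, with a counting interval of 171 to 5160, adjusted p = 1.08e-28), and SPINT2, at 1760.2 and 1946 CPM in NCI-H1650, against 0 and 0 CPM in Hs 936.T, was at least 3740-fold higher. CEACAM5 was the gene called lower, at 0 and 5.86 CPM in NCI-H1650, against 8.33 and 8.17 CPM in Hs 936.T (log2 fold change -1.50 ± 0.653 (SE), adjusted p = 0.0392, and -0.51 without NCI-H1650 replicate 1 or -7.25 without NCI-H1650 replicate 2). It was not called without NCI-H1650 replicate 1 or either Hs 936.T library (-1.47 without replicate 1 and -1.51 without replicate 2). CEACAM6, whose sequence is close to CEACAM5, stood at 2.27 and 3.52 CPM in NCI-H1650, against 7.71 and 6.75 CPM in Hs 936.T and was not called.

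Few genes of differentiated airway or alveolar cells were detected. Of 23 listed, 18 were named and 6 tested, with 5 called higher and 1 not called. LAMP3, a lamellar body protein of alveolar type II cells, stood at 45.5 and 55.1 CPM in NCI-H1650, against 0 and 0 CPM in Hs 936.T (at least 101-fold higher, adjusted p = 5.37e-18). SFTPD, surfactant protein D, stood at 10.2 and 8.21 CPM in NCI-H1650, against 0 and 0 CPM in Hs 936.T (at least 18.6-fold higher, adjusted p = 2.83e-07). Without NCI-H1650 replicate 1, 2 of 6 tested airway genes were called higher and the median was -1.0, against 4.16 with all libraries. The surfactant genes SFTPA1, SFTPB and SFTPC did not enter the test.

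Markers of other cell types were scarce. Of 19 blood cell genes, 15 were named and 1, CD68, passed the filter on low counts, and it was called lower at 31.8 and 31.7 CPM in NCI-H1650, against 71 and 81 CPM in Hs 936.T. Of 15 fibroblast and endothelial genes, 13 were named and 4 tested, with COL1A1 called higher and LUM and ACTA2 lower. Lumican, LUM, a proteoglycan, stood at 3.41 and 1.17 CPM in NCI-H1650, against 172 and 153 CPM in Hs 936.T (log2 fold change -6.10 ± 0.34 (SE), adjusted p = 3.88e-21, and -7.07 without NCI-H1650 replicate 1). Of 13 neuroendocrine genes, 11 were named and 5 tested, with 3 called lower (SYP, SCG3 and ENO2) and none higher.

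Genes of the mesenchymal and neural crest list did not move one way. Of 27 listed, 25 were named and 21 tested, with 7 called higher, 10 lower and 4 not called, and a median of -1.28. Vimentin, VIM, stood at 33 and 18.8 CPM in NCI-H1650, against 2550.3 and 2644 CPM in Hs 936.T (log2 fold change -6.64 ± 0.379 (SE), adjusted p = 5.50e-05). The transcription factor ZEB2 stood at 2.27 and 0 CPM in NCI-H1650, against 167 and 159 CPM in Hs 936.T (141-fold lower, with a counting interval of 39.1 to 1170, adjusted p = 8.02e-23), and ZEB1 at 1.14 and 0 CPM in NCI-H1650, against 12.3 and 10.7 CPM in Hs 936.T. NES (nestin) and NCAM1, both of neural progenitors, were lower, NCAM1 at least 25.6-fold. SPARC, a secreted matrix glycoprotein, stood at 132 and 151 CPM in NCI-H1650, against 1217 and 1213 CPM in Hs 936.T (log2 fold change -3.10 ± 0.23 (SE), adjusted p = 1.81e-05).

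Several genes usually listed as mesenchymal were higher in the lung line. Fibronectin, FN1, stood at 236 and 158 CPM in NCI-H1650, against 1.54 and 0.71 CPM in Hs 936.T (log2 fold change 7.35 ± 0.54 (SE), adjusted p = 1.09e-05, and 8.01 without Hs 936.T replicate 1). TGFBI, a matrix protein induced by TGF-beta, stood at 849 and 792 CPM in NCI-H1650, against 0 and 0.355 CPM in Hs 936.T (4970-fold higher, with a counting interval of 891 to 197000, adjusted p = 5.38e-39). TNC (tenascin C), the repressor SNAI1 and the galectin LGALS1 had log2 fold changes of 5.22, 4.61 and 2.50, and SNAI1 had 5.21 without Hs 936.T replicate 1. The receptor kinase AXL stood at 22.7 and 9.38 CPM in NCI-H1650, against 0.309 and 0.71 CPM in Hs 936.T (33-fold higher, with a counting interval of 10.1 to 168, adjusted p = 1.67e-09). Its fitted log2 fold change was 4.87 with all libraries and 4.08 without NCI-H1650 replicate 1. N-cadherin, CDH2, was low and not called, at 11.4 and 14.1 CPM in NCI-H1650, against 16.4 and 14.9 CPM in Hs 936.T.

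Extracellular matrix genes were named for 27 of 31 listed and tested for 24, with 14 called higher, 3 lower and 7 not called, and a median of 0.98. COL5A1, a fibril collagen, was at least 436-fold higher and fibrillin FBN1 at least 220-fold. The collagen crosslinker LOXL2 stood at 143 and 124 CPM in NCI-H1650, against 1.23 and 1.42 CPM in Hs 936.T (log2 fold change 6.60 ± 0.277 (SE), adjusted p = 2.99e-26), and the gelatinase MMP2 at 93.2 and 93.8 CPM in NCI-H1650, against 0.926 and 0.355 CPM in Hs 936.T (log2 fold change 7.02 ± 0.362 (SE), adjusted p = 1.14e-22, and 7.81 without Hs 936.T replicate 1). MMP14, the membrane protease that activates MMP2, went the other way, with 27.3 and 21.1 CPM in NCI-H1650, against 546 and 527 CPM in Hs 936.T (log2 fold change -4.47 ± 0.177 (SE), adjusted p = 1.63e-24). LAMA4 and FBN2 were the others called lower, and LAMA4 was not called without either NCI-H1650 library (log2 fold changes -1.51 without replicate 1 and -1.78 without replicate 2).

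Interferon-induced genes were higher in NCI-H1650. On the list of class II and interferon-induced genes, 29 of 31 were named and 28 tested, of which 25 were called higher, 1 lower and 2 not called. The median log2 fold change was 3.71, with or without bounds. The list took 1.33% and 1.63% of named footprints in NCI-H1650, against 0.224% and 0.222% in Hs 936.T.

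Promoters of 3 of these genes are shown because they hold the interferon-stimulated response element, searched as GAAA, any 2 bases, GAAA and a final C, which the complex with STAT2 and IRF9 is known to bind (250 bases before the RefSeq start, GRCh38.p14, 5′ to 3′ on the strand of the gene; capitals mark the element on either strand, and in ISG15 a pair of matches overlap):
IFI27, chr14:94110486-94110735, plus strand: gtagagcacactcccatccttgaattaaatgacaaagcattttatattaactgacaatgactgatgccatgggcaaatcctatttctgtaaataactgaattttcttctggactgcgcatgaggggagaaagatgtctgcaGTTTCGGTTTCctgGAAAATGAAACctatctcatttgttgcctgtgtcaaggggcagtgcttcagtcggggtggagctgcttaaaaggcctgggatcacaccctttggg
IFIT1, chr10:89392373-89392622, plus strand: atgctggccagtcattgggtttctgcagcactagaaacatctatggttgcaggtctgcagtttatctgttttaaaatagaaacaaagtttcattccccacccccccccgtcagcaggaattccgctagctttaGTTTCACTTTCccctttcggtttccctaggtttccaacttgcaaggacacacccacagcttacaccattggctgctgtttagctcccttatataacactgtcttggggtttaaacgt
ISG15, chr1:1013247-1013496, plus strand: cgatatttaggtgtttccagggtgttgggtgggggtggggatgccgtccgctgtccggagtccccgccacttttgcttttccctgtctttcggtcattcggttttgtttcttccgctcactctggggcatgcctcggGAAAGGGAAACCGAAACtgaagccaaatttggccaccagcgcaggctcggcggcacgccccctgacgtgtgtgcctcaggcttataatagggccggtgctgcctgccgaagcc
In the windows of 300 bases, the element was found on either strand in 10 of 23 promoters matched to the list (IFI27, IFI44, IFI6, IFIH1, IFIT1, IFIT3, ISG15, ISG20, MX1 and OAS3), and in 0.798% of all 27305. The shorter form without the final C, which lies within it, was found in 12 of the 23 and in 3.65% of all.

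IFI6, a mitochondrial antiviral protein, stood at 3320.4 and 4231 CPM in NCI-H1650, against 94.1 and 95.9 CPM in Hs 936.T (log2 fold change 5.31 ± 0.292 (SE), adjusted p = 5.40e-05). IFI27 stood at 2111 and 2782 CPM in NCI-H1650, against 0.309 and 0.355 CPM in Hs 936.T (7400-fold higher, with a counting interval of 2050 to 61100, adjusted p = 1.92e-35). The RNA-binding antiviral protein IFIT1 stood at 897 and 1058 CPM in NCI-H1650, against 21.3 and 16 CPM in Hs 936.T (log2 fold change 5.70 ± 0.274 (SE), adjusted p = 6.79e-07). In each of these genes the lowest NCI-H1650 library stood far above the highest Hs 936.T library. ISG15, a ubiquitin-like modifier, stood at 610.2 and 825 CPM in NCI-H1650, against 10.8 and 9.59 CPM in Hs 936.T (log2 fold change 6.12 ± 0.175 (SE), adjusted p = 3.94e-24). MX1, a dynamin-like GTPase that blocks viruses, stood at 1085 and 1396 CPM in NCI-H1650, against 0.926 and 2.49 CPM in Hs 936.T (log2 fold change 9.50 ± 0.234 (SE), adjusted p = 9.05e-20, and 10.30 without Hs 936.T replicate 2). OAS2, a synthetase that activates RNase L, stood at 334 and 392 CPM in NCI-H1650, against 0.617 and 2.13 CPM in Hs 936.T (log2 fold change 8.04 ± 0.24 (SE), adjusted p = 6.35e-32, and 7.38 without Hs 936.T replicate 1 or 9.06 without Hs 936.T replicate 2). NCI-H1650 replicate 2 held more than replicate 1 in all 6 of these genes.

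The sensors and factors of the pathway were higher as well, apart from IFI16. DDX58, the RNA sensor RIG-I, and IFIH1, the sensor MDA5, had log2 fold changes of 5.21 and 2.91. STAT2 stood at 232 and 267 CPM in NCI-H1650, against 27.8 and 38.4 CPM in Hs 936.T (log2 fold change 2.92 ± 0.147 (SE), adjusted p = 4.69e-23), and IRF9 at 89.8 and 97.3 CPM in NCI-H1650, against 14.5 and 17.8 CPM in Hs 936.T (log2 fold change 2.54 ± 0.215 (SE), adjusted p = 1.05e-14). IFI16, a DNA sensor, stood at 98.9 and 98.5 CPM in NCI-H1650, against 1625 and 1522 CPM in Hs 936.T (log2 fold change -3.99 ± 0.12 (SE), adjusted p = 3.08e-31). On the class II side, CD74, the invariant chain, stood at 145 and 166 CPM in NCI-H1650, against 11.4 and 25.9 CPM in Hs 936.T (log2 fold change 3.09 ± 0.31 (SE), adjusted p = 3.35e-05, and 3.77 without Hs 936.T replicate 2), and HLA-DPA1 and HLA-DPB1 were not called. Without NCI-H1650 replicate 1, HLA-DPA1 was called lower (log2 fold change -2.94, adjusted p = 0.00593).

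Class I antigen presentation genes were named and tested for 17 of 20 listed, with 12 called higher, 2 lower and 3 not called, and a median of 0.76. B2M, the light chain of class I molecules, stood at 2517 and 3112 CPM in NCI-H1650, against 1623 and 1683 CPM in Hs 936.T (log2 fold change 0.77 ± 0.0893 (SE), adjusted p = 8.89e-09). TAPBP, which loads peptides, stood at 479.5 and 525 CPM in NCI-H1650, against 74 and 88.4 CPM in Hs 936.T (log2 fold change 2.63 ± 0.115 (SE), adjusted p = 1.79e-25), and the aminopeptidase ERAP2 at 55.7 and 71.5 CPM in NCI-H1650, against 0.926 and 1.78 CPM in Hs 936.T (log2 fold change 5.52 ± 0.4 (SE), adjusted p = 4.44e-17). HLA genes resemble one another and vary between lines, so their footprints may be split or lost. The chaperones CANX and PDIA3 were those called lower, with log2 fold changes of -1.75 and -0.37.

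**Figure D3:**
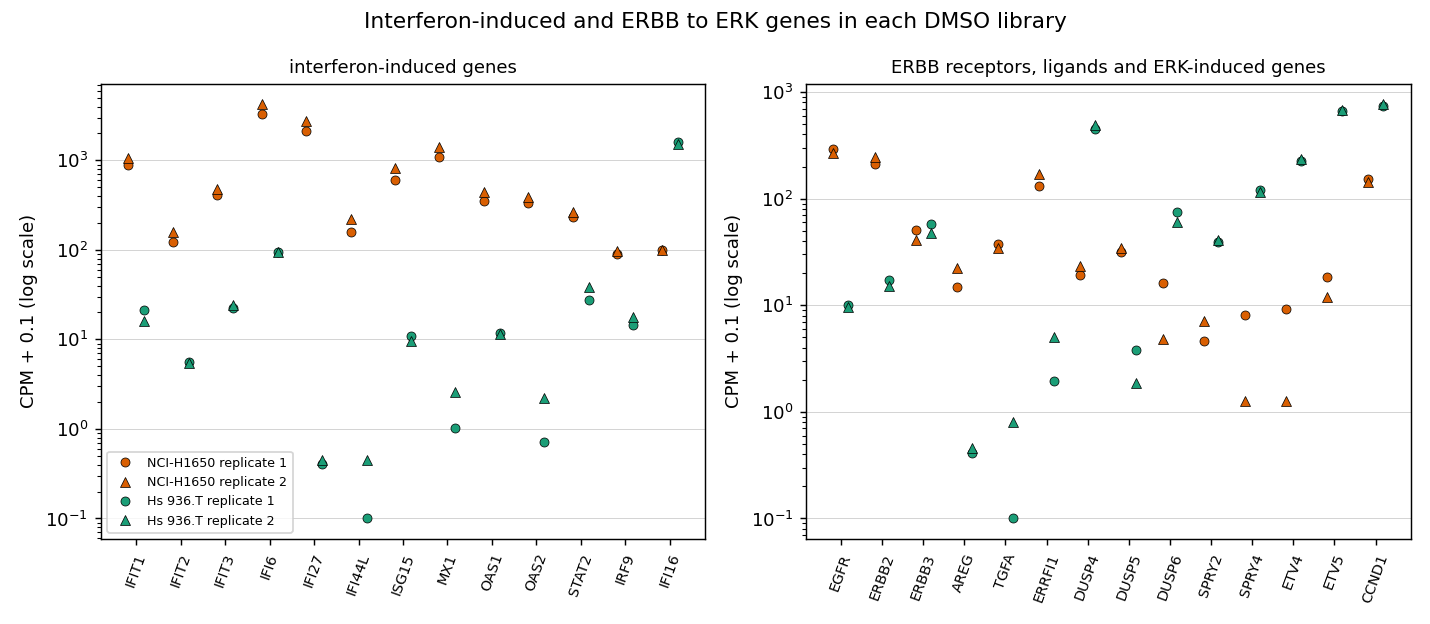
Footprint level of interferon-induced genes (left) and of ERBB to ERK pathway genes (right) in each DMSO library, as CPM + 0.1 on a log scale, with NCI-H1650 left of Hs 936.T for each gene. Interferon-induced genes other than IFI16 are higher in NCI-H1650; EGFR, ERBB2, ligands, ERRFI1 and DUSP5 are higher in NCI-H1650, DUSP4, DUSP6, SPRY2, SPRY4, ETV4, ETV5 and CCND1 are lower, and the ERBB3 values of the lines overlap.

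Genes of the ERBB and RAS-ERK pathway differed in both directions. Growth factor receptors of the ERBB family signal through RAS, RAF and MEK to the kinase ERK, which induces phosphatases and SPRY proteins that damp it. Of 41 listed genes, 37 were named and 34 tested, with 11 called higher, 14 lower and 9 not called, close to the shares of all genes, and a median of -0.09. EGFR stood at 291 and 268 CPM in NCI-H1650, against 9.87 and 9.59 CPM in Hs 936.T (log2 fold change 4.84 ± 0.17 (SE), adjusted p = 2.76e-29). ERBB2, whose span overlaps PGAP3 on the opposite strand, stood at 210.2 and 244 CPM in NCI-H1650, against 17 and 14.9 CPM in Hs 936.T (log2 fold change 3.82 ± 0.171 (SE), adjusted p = 3.67e-25). ERBB3, a partner receptor used by both lineages, stood at 51.1 and 41 CPM in NCI-H1650, against 57.4 and 47.6 CPM in Hs 936.T and was not called.

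The EGFR ligands TGFA and AREG were higher. TGFA stood at 37.5 and 34 CPM in NCI-H1650, against 0 and 0.71 CPM in Hs 936.T (108-fold higher, with a counting interval of 28.8 to 915, adjusted p = 3.23e-15). ERRFI1, an inhibitor that binds EGFR, stood at 132 and 171 CPM in NCI-H1650, against 1.85 and 4.97 CPM in Hs 936.T (log2 fold change 5.49 ± 0.246 (SE), adjusted p = 4.54e-25, and 6.31 without Hs 936.T replicate 2). The transcription factors ETV5 and ETV4, which ERK is known to induce, were lower, ETV5 at 18.2 and 11.7 CPM in NCI-H1650, against 666 and 684 CPM in Hs 936.T (log2 fold change -5.49 ± 0.177 (SE), adjusted p = 7.81e-31) and ETV4 at 9.09 and 1.17 CPM in NCI-H1650, against 228 and 234 CPM in Hs 936.T (log2 fold change -5.46 ± 0.264 (SE), adjusted p = 8.57e-24, and -7.58 without NCI-H1650 replicate 1 or -4.66 without NCI-H1650 replicate 2). DUSP4, a phosphatase of ERK, stood at 19.3 and 23.4 CPM in NCI-H1650, against 446 and 493 CPM in Hs 936.T (log2 fold change -4.45 ± 0.196 (SE), adjusted p = 2.17e-19). DUSP6, SPRY2, SPRY4 and PHLDA1 had log2 fold changes of -2.70, -2.79, -4.66 and -2.16. Leaving out NCI-H1650 replicate 1 gave -3.86 for DUSP6 and -6.61 for SPRY4, and leaving out replicate 2 gave -2.08 and -3.88. Cyclin D1, CCND1, stood at 152 and 144 CPM in NCI-H1650, against 734 and 767 CPM in Hs 936.T (log2 fold change -2.34 ± 0.106 (SE), adjusted p = 6.76e-25). DUSP5 was the phosphatase that was higher, with a log2 fold change of 3.53 (4.17 without Hs 936.T replicate 1). IGF1R, a receptor outside the ERBB family, stood at 23.9 and 22.3 CPM in NCI-H1650, against 124 and 134 CPM in Hs 936.T (log2 fold change -2.48 ± 0.199 (SE), adjusted p = 1.63e-15).

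The PI3K and mTOR list had 22 of 26 genes named and 21 tested, with 6 called higher, 6 lower and 9 not called, and a median of 0.05. Of all tested genes, 35.3% were called higher and 33.6% lower. The kinase AKT2 stood at 51.1 and 53.9 CPM in NCI-H1650, against 11.1 and 14.9 CPM in Hs 936.T (log2 fold change 2.02 ± 0.24 (SE), adjusted p = 2.88e-10). PIK3CD, the catalytic subunit best known from leukocytes, stood at 3.41 and 0 CPM in NCI-H1650, against 30.9 and 41.2 CPM in Hs 936.T. DEPTOR, an mTOR inhibitor, was higher (log2 fold change 4.06 ± 0.506 (SE), adjusted p = 1.09e-09), and the INPP4B phosphatase lower (log2 fold change -1.50 ± 0.159 (SE), adjusted p = 5.42e-11).

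The helicases that RocA targets and their cap-binding partners were described in the untreated lines. Of 15 genes, 13 were named and tested, with 3 called higher, 7 lower and 3 not called, and a median of -0.26. EIF4A1, the main helicase of the scanning ribosome and a target of RocA, stood at 1494 and 1439.5 CPM in NCI-H1650, against 2439 and 2422 CPM in Hs 936.T (log2 fold change -0.73 ± 0.074 (SE), adjusted p = 3.41e-12). EIF4A2, its paralog, stood at 194 and 166 CPM in NCI-H1650, against 184 and 177 CPM in Hs 936.T (log2 fold change 0.00 ± 0.122 (SE), adjusted p = 1). The cap-binding protein EIF4E stood at 208 and 157 CPM in NCI-H1650, against 165 and 147 CPM in Hs 936.T and was not called (without NCI-H1650 replicate 2, log2 fold change 0.41, adjusted p = 0.0153). DDX3X, another reported target, was not among the named genes. PDCD4, a tumour suppressor that blocks eIF4A, stood at 415 and 423 CPM in NCI-H1650, against 105 and 102 CPM in Hs 936.T (log2 fold change 2.01 ± 0.112 (SE), adjusted p = 2.05e-21). EIF4B and EIF4H, which stimulate the helicase, had log2 fold changes of -0.61 and -0.67. The poly(A)-binding protein gene PABPC1 stood at 962 and 1021 CPM in NCI-H1650, against 626 and 568 CPM in Hs 936.T (log2 fold change 0.73 ± 0.0851 (SE), adjusted p = 1.66e-10), and retrotransposed copies of it can share its reads.

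Other initiation and elongation factors were named and tested for 32 of 36 listed, with 6 called higher, 18 lower and 8 not called, and a median of -0.41. EIF1, which guards start codon choice, stood at 609 and 618 CPM in NCI-H1650, against 1473 and 1486 CPM in Hs 936.T (log2 fold change -1.27 ± 0.0861 (SE), adjusted p = 3.70e-18). The elongation factor EEF1A1 stood at 7669 and 7116 CPM in NCI-H1650, against 11359 and 11295 CPM in Hs 936.T (log2 fold change -0.62 ± 0.0674 (SE), adjusted p = 3.02e-11), and EEF2 at 1145 and 848 CPM in NCI-H1650, against 2108 and 2203 CPM in Hs 936.T (log2 fold change -1.11 ± 0.0942 (SE), adjusted p = 2.75e-11). Among the subunits of eIF3, EIF3A and EIF3D had log2 fold changes of -1.25 and -1.12, while EIF3H and EIF3E had 0.68 and 0.34. EEF1D and EEF1G, of the exchange factor complex, were higher at 0.99 and 0.82.

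Cytosolic ribosomal protein genes were named and tested for 64 of 78 listed, with 20 called higher, 35 lower and 9 not called, and a median of -0.24. The proteins of one ribosome did not share one difference. RPL8 stood at 2748 and 2844 CPM in NCI-H1650, against 1267 and 1230.5 CPM in Hs 936.T (log2 fold change 1.16 ± 0.0738 (SE), adjusted p = 3.31e-19), and RPL30 at 544 and 495 CPM in NCI-H1650, against 1319.6 and 1309.7 CPM in Hs 936.T (log2 fold change -1.34 ± 0.0844 (SE), adjusted p = 2.49e-19). These 2 genes mark the ends of the range. RPL28 and RPS15A were higher, with log2 fold changes of 1.0 and 0.83, and RPS15 and RPL21 lower, with -1.26 and -1.28. Many ribosomal protein genes have processed pseudogenes that can take part of their reads.

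**Figure D4:**
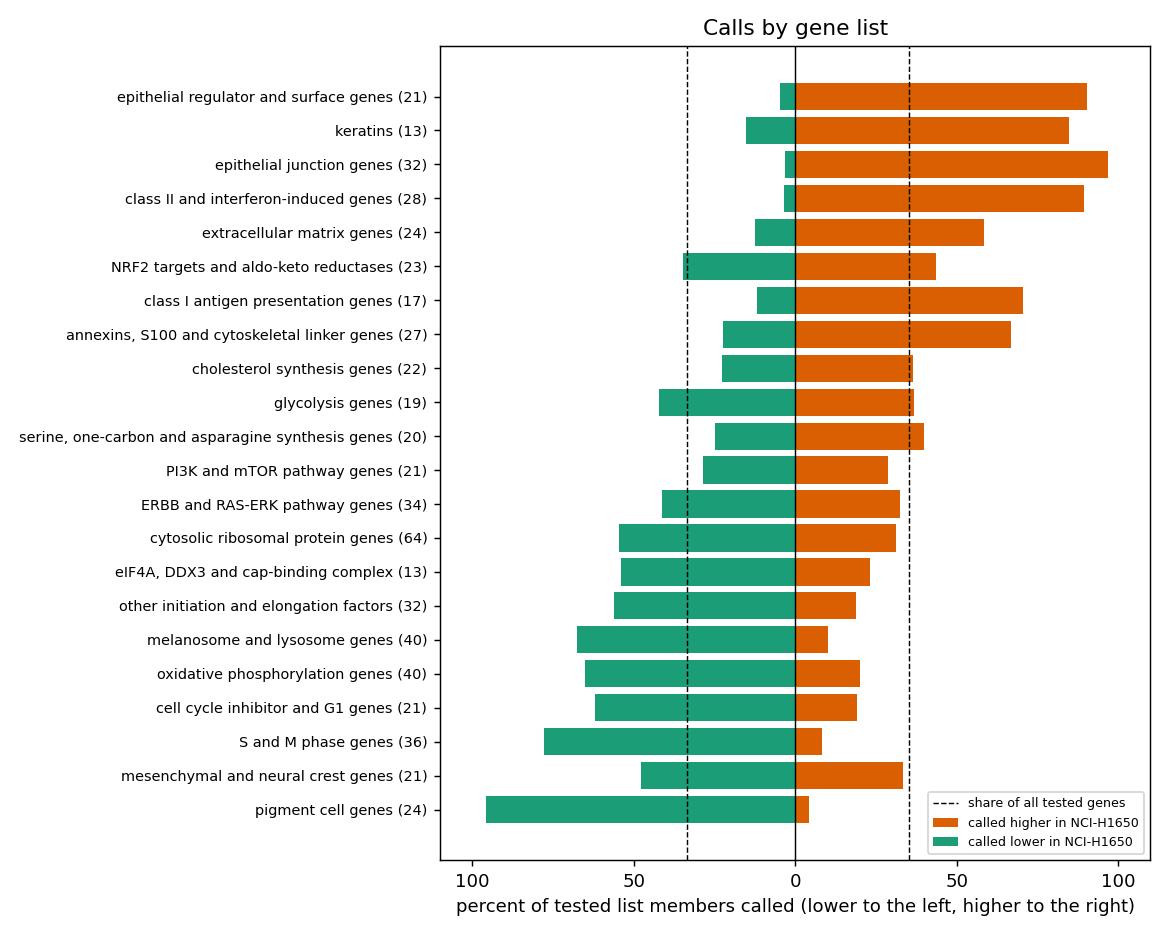
Share of the tested members of each list of at least 10 tested genes (number in brackets) called higher in NCI-H1650 (to the right) or lower (to the left), ordered by median log2 fold change, with the shares among all 10549 tested genes as dashed lines (35.3% and 33.6%). Epithelial, keratin and interferon lists lie almost wholly to the right, and pigment cell, S and M phase, lysosome and oxidative phosphorylation lists mostly to the left.

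Oxidative phosphorylation genes were mostly lower in NCI-H1650, by modest amounts. Of 47 listed, 40 were named and tested, with 26 called lower, 8 higher and 6 not called, and a median of -0.63. PPARGC1A, the coactivator PGC-1alpha that MITF is known to induce in melanoma, stood at 1.14 and 0 CPM in NCI-H1650, against 168 and 162 CPM in Hs 936.T (286-fold lower, with a counting interval of 51.2 to 11300, adjusted p = 3.12e-22). ATP5F1C, a subunit of ATP synthase, stood at 231 and 252 CPM in NCI-H1650, against 688 and 666 CPM in Hs 936.T (log2 fold change -1.49 ± 0.0988 (SE), adjusted p = 1.75e-18). COX5A of complex IV had a log2 fold change of -1.15. SDHD, a membrane anchor of complex II, was higher, at 277 and 304 CPM in NCI-H1650, against 139 and 121 CPM in Hs 936.T (log2 fold change 1.16 ± 0.118 (SE), adjusted p = 3.97e-12).

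Glycolysis genes went both ways, with 7 of 19 tested called higher, 8 lower and 4 not called (21 listed, 19 named), and a median of 0.08. These counts are close to the shares of all tested genes, 35.3% higher and 33.6% lower. The lactate exporter SLC16A3, which overlaps CSNK1D on the opposite strand, stood at 308 and 365 CPM in NCI-H1650, against 0 and 0.355 CPM in Hs 936.T (2030-fold higher, with a counting interval of 364 to 80500, adjusted p = 4.78e-33). The glucose transporter SLC2A1 stood at 489 and 435 CPM in NCI-H1650, against 49.4 and 58.6 CPM in Hs 936.T (log2 fold change 3.10 ± 0.118 (SE), adjusted p = 6.61e-28). LDHB, the lactate dehydrogenase subunit of oxidative tissue, stood at 617 and 626 CPM in NCI-H1650, against 2942 and 2797 CPM in Hs 936.T (log2 fold change -2.21 ± 0.0844 (SE), adjusted p = 8.02e-28), and LDHA at 1649 and 1656 CPM in NCI-H1650, against 1580.3 and 1552 CPM in Hs 936.T, not called. Phosphofructokinase genes PFKM and PFKP were lower, with log2 fold changes of -2.70 and -2.07.

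Cholesterol synthesis genes went both ways, as did all tested genes (35.3% higher and 33.6% lower). Of 26 listed genes, 23 were named and 22 tested, with 8 called higher, 5 lower and 9 not called, and a median of 0.16. HSD17B7, a reductase of the pathway, was higher (log2 fold change 5.61 ± 0.466 (SE), adjusted p = 4.85e-15), while IDI1 and CYP51A1, earlier in the pathway, were lower at -2.15 and -1.66.

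Serine, one-carbon and asparagine synthesis genes had 21 of 24 named and 20 tested, with 8 called higher, 5 lower and 7 not called, and a median of 0.06. The shares of all tested genes were 35.3% higher and 33.6% lower. PSAT1, of serine synthesis, stood at 295 and 267 CPM in NCI-H1650, against 101 and 99.1 CPM in Hs 936.T (log2 fold change 1.49 ± 0.117 (SE), adjusted p = 6.41e-16). The mTOR inhibitor DDIT4, induced by stress, stood at 368 and 399.7 CPM in NCI-H1650, against 50 and 64.6 CPM in Hs 936.T (log2 fold change 2.75 ± 0.128 (SE), adjusted p = 2.0e-24). Mitochondrial SHMT2 was lower and cytosolic SHMT1 higher, with log2 fold changes of -1.34 and 1.16.

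Melanosome and lysosome genes, which share a biogenesis route, were lower for 27 of 40 tested (43 listed, 40 named), higher for 4 and not called for 9, with a median of -0.60. Cathepsin B, CTSB, stood at 251 and 297 CPM in NCI-H1650, against 4722 and 5044 CPM in Hs 936.T (log2 fold change -4.16 ± 0.371 (SE), adjusted p = 5.01e-04). CD63, a tetraspanin of melanosomes and lysosomes, stood at 398 and 399.7 CPM in NCI-H1650, against 3139.9 and 3084 CPM in Hs 936.T (log2 fold change -2.96 ± 0.0939 (SE), adjusted p = 4.52e-31). HPS4 and LYST, which are mutated in albinism syndromes, had log2 fold changes of -3.70 and -3.53. CTSD, the main lysosomal aspartic protease, stood at 1176 and 1299 CPM in NCI-H1650, against 1150.5 and 1125 CPM in Hs 936.T and was not called. ATP6AP1, an accessory subunit of the proton pump, was higher (log2 fold change 1.10 ± 0.108 (SE), adjusted p = 1.16e-12), whereas the pump subunit ATP6V1B2 was lower (log2 fold change -2.48 ± 0.129 (SE), adjusted p = 1.56e-22).

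Genes of S phase and mitosis were lower in NCI-H1650 for 28 of 36 tested (38 listed, 36 named), higher for 3 and not called for 5, with a median of -1.02. The replicative helicase subunit MCM7 stood at 169 and 154 CPM in NCI-H1650, against 660.0 and 649.7 CPM in Hs 936.T (log2 fold change -2.02 ± 0.103 (SE), adjusted p = 8.46e-23). MCM2, of the same complex, was higher, at 139.8 and 121 CPM in NCI-H1650, against 84.2 and 85.3 CPM in Hs 936.T (log2 fold change 0.62 ± 0.133 (SE), adjusted p = 5.83e-05). CDK1, the mitotic kinase, stood at 151 and 99.6 CPM in NCI-H1650, against 474 and 462 CPM in Hs 936.T (log2 fold change -1.90 ± 0.12 (SE), adjusted p = 3.38e-19), and CDC6, which loads the helicase, at 52.3 and 58.6 CPM in NCI-H1650, against 220.3 and 223 CPM in Hs 936.T (log2 fold change -2.0 ± 0.152 (SE), adjusted p = 2.27e-16). The mitotic kinases PLK1 and AURKA were not called.

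Cell cycle inhibitor and G1 genes were named for 23 of 26 listed and tested for 21, with 4 called higher, 13 lower and 4 not called, and a median of -0.86. CDKN2A, which codes for the inhibitors p16 and ARF, stood at 5.68 and 1.17 CPM in NCI-H1650, against 138 and 144 CPM in Hs 936.T (log2 fold change -5.33 ± 0.307 (SE), adjusted p = 8.86e-21, and -6.87 without NCI-H1650 replicate 1 or -4.62 without NCI-H1650 replicate 2). Its neighbour MTAP stood at 34.1 and 32.8 CPM in NCI-H1650, against 129 and 124 CPM in Hs 936.T (log2 fold change -1.92 ± 0.188 (SE), adjusted p = 1.08e-12). RB1 stood at 46.6 and 45.7 CPM in NCI-H1650, against 128 and 131 CPM in Hs 936.T (log2 fold change -1.49 ± 0.165 (SE), adjusted p = 4.87e-11), and other genes lie within its span on the opposite strand. MYC stood at 77.3 and 82.1 CPM in NCI-H1650, against 260.1 and 272 CPM in Hs 936.T (log2 fold change -1.74 ± 0.138 (SE), adjusted p = 9.89e-16). CDK2 stood at 63.6 and 65.6 CPM in NCI-H1650, against 1209 and 1212 CPM in Hs 936.T (log2 fold change -4.23 ± 0.128 (SE), adjusted p = 6.09e-32), but its span lies within that of PMEL on the opposite strand in the annotation, and whether the counting used strand is not stated. RBL2 and E2F1 were higher, with log2 fold changes of 2.23 and 2.75.

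Annexins, S100 proteins and cytoskeletal linkers were called higher for 18 of 27 tested (33 listed, 29 named), lower for 6 and not called for 3, with a median of 0.74. The family split by member. ANXA1, a calcium-dependent membrane protein of epithelia and leukocytes, stood at 2270.4 and 2479 CPM in NCI-H1650, against 9.56 and 18.5 CPM in Hs 936.T (log2 fold change 7.43 ± 0.159 (SE), adjusted p = 5.31e-21), and ANXA3 was at least 261-fold higher. ANXA6 went the other way, at 5.68 and 5.86 CPM in NCI-H1650, against 583 and 559 CPM in Hs 936.T (log2 fold change -6.62 ± 0.21 (SE), adjusted p = 4.34e-31), as did ANXA5 (log2 fold change -1.68 ± 0.095 (SE), adjusted p = 1.31e-17). S100A10, the partner of ANXA2, stood at 1945 and 2357 CPM in NCI-H1650, against 379 and 361 CPM in Hs 936.T (log2 fold change 2.54 ± 0.231 (SE), adjusted p = 3.20e-04). AHNAK2, a giant scaffold protein, stood at 358 and 336 CPM in NCI-H1650, against 1.54 and 0.71 CPM in Hs 936.T (log2 fold change 8.16 ± 0.278 (SE), adjusted p = 6.98e-21, and 8.82 without Hs 936.T replicate 1). Nonmuscle myosins were exchanged, with MYH14 higher (log2 fold change 4.48 ± 0.15 (SE), adjusted p = 3.51e-30) and MYH10 lower (log2 fold change -2.94 ± 0.148 (SE), adjusted p = 2.33e-20). The actin crosslinker FLNA stood at 131 and 135 CPM in NCI-H1650, against 946 and 1032 CPM in Hs 936.T (log2 fold change -2.90 ± 0.11 (SE), adjusted p = 6.66e-28).

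For targets of the antioxidant regulator NRF2 and the aldo-keto reductases, 23 of 34 listed genes were named and tested, with 10 called higher, 8 lower and 5 not called, and a median of 0.80. Shares over all tested genes were 35.3% higher and 33.6% lower. NQO1, a quinone reductase, stood at 2316 and 2272 CPM in NCI-H1650, against 7480.4 and 7055 CPM in Hs 936.T (log2 fold change -1.66 ± 0.0789 (SE), adjusted p = 4.64e-24). The exporter ABCC3 stood at 72.7 and 57.4 CPM in NCI-H1650, against 0 and 0.355 CPM in Hs 936.T (395-fold higher, with a counting interval of 69.5 to 15700, adjusted p = 1.18e-19). Several values on this list rest on NCI-H1650 replicate 1, the DMSO library that held more of the NCI-H520 genes. GPX2 is among the genes picked to describe that share, so its gap between replicates is not a separate case. AKR1C1 stood at 256 and 27 CPM in NCI-H1650, against 0.617 and 0.355 CPM in Hs 936.T, and its log2 fold change was 8.01 with replicate 1 and 5.60 without it. It was not called without Hs 936.T replicate 1 (adjusted p = 0.0779) or replicate 2 (adjusted p = 0.0707). GPX2 stood at 11.4 and 1.17 CPM in NCI-H1650, against 0 and 0 CPM in Hs 936.T, called with replicate 1 (adjusted p = 9.97e-06) but not without it (adjusted p = 0.0692). ALDH3A1 stood at 85.2 and 9.38 CPM in NCI-H1650, against 0 and 0 CPM in Hs 936.T and ALDH1A1 at 77.3 and 2.34 CPM in NCI-H1650, against 13.3 and 11 CPM in Hs 936.T, neither of them called by edgeR with all libraries. DESeq2 called ALDH3A1 higher with all libraries (adjusted p = 0.000123). Without replicate 1, ALDH3A1 was called higher (log2 fold change 7.41) and ALDH1A1 called lower (-2.37), and without replicate 2 ALDH1A1 was called higher (2.66). UCHL1, on the neuroendocrine list, stood at 45.5 and 2.34 CPM in NCI-H1650, against 0 and 0 CPM in Hs 936.T and was not called, and without replicate 1 it was called higher (5.44). The part of NCI-H520 reads in these values was not tested.

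Cancer-testis antigen genes, expressed in germ cells and tumours, were named for 8 of 24 listed and tested for 7, with 1 called higher, 2 lower and 4 not called. PRAME stood at 179.5 and 165 CPM in NCI-H1650, against 9.26 and 12.1 CPM in Hs 936.T (log2 fold change 4.02 ± 0.183 (SE), adjusted p = 7.92e-25), and MAGEA1 at 1.14 and 0 CPM in NCI-H1650, against 105 and 117 CPM in Hs 936.T (192-fold lower, with a counting interval of 34.3 to 7580, adjusted p = 4.14e-20). MAGEC1 was the other called lower, at 2.27 and 1.17 CPM in NCI-H1650, against 5.55 and 8.88 CPM in Hs 936.T, but not without NCI-H1650 replicate 2 (log2 fold change -1.62). MAGEA4 stood at 35.2 and 0 CPM in NCI-H1650, against 5.25 and 8.88 CPM in Hs 936.T and was not called, but it was called lower without NCI-H1650 replicate 1 (log2 fold change -7.0) and higher without replicate 2 (2.34).

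By chromosome, chromosome 13 stood out in the direction of Hs 936.T. Of its 192 tested genes, 140 were called lower in NCI-H1650 (72.9%) and 17 higher (8.85%), against 33.6% and 35.3% of all tested genes. The median log2 fold change of chromosome 13 was -1.46, and -1.50 over the genes named by length alone. The next lowest medians were -0.60 on chromosome X and -0.50 on chromosome 3, and the highest were 0.69 on chromosome 19 and 0.61 on chromosome 11. This chromosome was singled out after its values were seen, and no test was made.

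Chromosome 13 genes took 0.785% and 0.746% of footprints on tested genes in NCI-H1650, against 1.90% and 1.88% in Hs 936.T. The shares in the other DMSO libraries were 1.37% and 1.40% in NCI-H520 and 1.68% and 1.68% in A375, so NCI-H1650 had the lowest share of the 4 lines. Set against the mean of the other 3 lines, the median chromosome 13 gene had a log2 difference of -1.25 in NCI-H1650 and 0.66 in Hs 936.T. The lower levels ran along the chromosome, with medians of -1.66, -1.46 and -1.38 in the first, middle and last 64 genes by position in the GENCODE annotation.

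Of the 23 chromosome 13 genes that averaged at least 100 CPM over the 4 libraries, 22 were called lower and 1, PABPC3, higher. PABPC3 is a retrotransposed copy of PABPC1, so its reads may come from that gene. The same caution holds among the 22 called lower for HNRNPA1L2, a close paralog of HNRNPA1 (log2 fold change -1.04). HMGB1, an abundant chromatin protein, stood at 491 and 470.1 CPM in NCI-H1650, against 1846 and 1780.3 CPM in Hs 936.T (log2 fold change -1.92 ± 0.087 (SE), adjusted p = 7.66e-25). ZC3H13, a component of the m6A methyltransferase complex, stood at 38.6 and 28.1 CPM in NCI-H1650, against 625 and 581 CPM in Hs 936.T (log2 fold change -4.17 ± 0.151 (SE), adjusted p = 7.92e-29). The nuclear import receptor IPO5 stood at 96.6 and 116 CPM in NCI-H1650, against 396 and 395 CPM in Hs 936.T (log2 fold change -1.90 ± 0.118 (SE), adjusted p = 1.77e-19). The pigment genes DCT and EDNRB and the tumour suppressor RB1 lie on this chromosome too. Among the genes called higher was KLF5, an epithelial transcription factor, at 134 and 162 CPM in NCI-H1650, against 4.63 and 5.68 CPM in Hs 936.T (log2 fold change 4.83 ± 0.215 (SE), adjusted p = 3.31e-25).

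**Figure D5:**
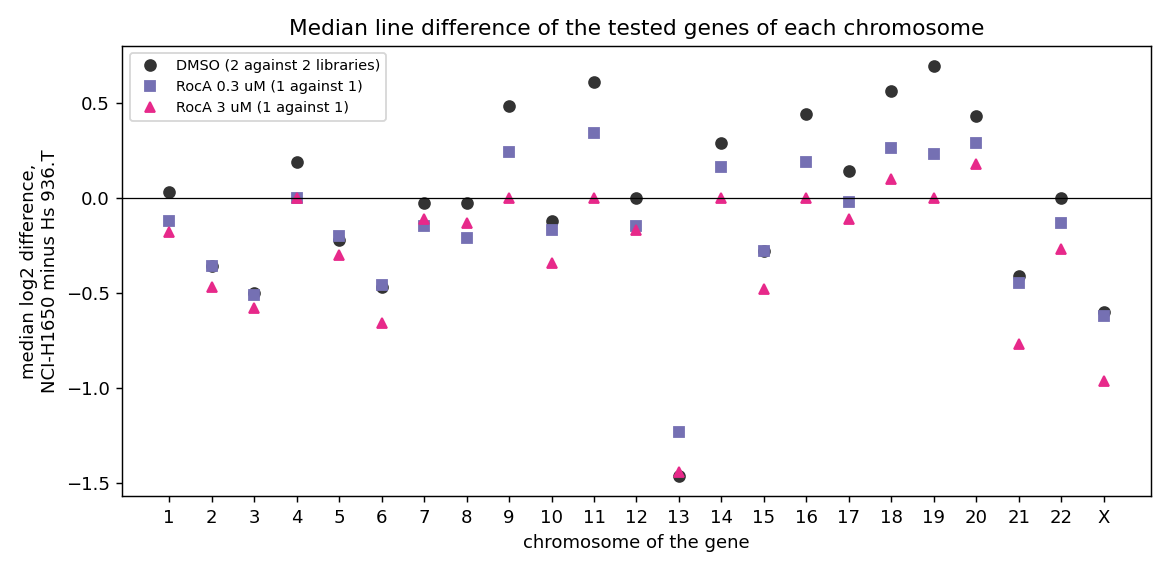
Median log2 difference, NCI-H1650 minus Hs 936.T, of the tested genes of each chromosome under DMSO (circles, 2 against 2 libraries) and in the libraries treated with RocA at 0.3 µM (squares) and 3 µM (triangles), 1 against 1 library each. Chromosome 13 is lowest in all 3 sets, at -1.46, -1.23 and -1.44.

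The libraries treated with RocA, which the comparison above does not use, gave a line difference of the same sign in most called genes, as a description with 1 library per line and dose and no test. Among 5580 genes with at least 20 counts over both libraries at 0.3 µM, the log2 difference between lines correlated with that under DMSO at r = 0.884 across genes. At 3 µM, r was 0.848 over 3634 genes. The genes share their libraries and are not independent. Of the called genes among them, 90.2% kept the sign at 0.3 µM and 90.0% at 3 µM. Named totals in these libraries were 204952 and 68660 footprints in NCI-H1650, against 780386 and 406205 in Hs 936.T. Pigment cell genes had a median log2 difference of -6.30 at 0.3 µM and -5.76 at 3 µM, and class II and interferon-induced genes 3.21 and 3.45. S and M phase genes had -0.66 and -0.58. Class I genes had -0.08 and 0.43, against 0.76 under DMSO. Lists with a median near 0 under DMSO did not all keep its sign. Cholesterol synthesis genes had -0.53 and -0.19, glycolysis genes -0.59 and -0.26, PI3K and mTOR genes -0.85 and -0.27, and serine, one-carbon and asparagine synthesis genes 0.28 and -0.17. The NCI-H1650 library at 0.3 µM is the one with 8.34% of the level of NCI-H520 genes, and the part of those reads in these values was not tested.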

How the data were processed

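The authors' deposited tables list, for 182398 transcript entries, the coding length in codons and a raw count of footprints; reads recur over entries of a gene. Per the submitters' processing notes, CASAVA 1.8, Bowtie2 2.1.0, TopHat2 2.0.9 and the build hg38 were used. The files pair entries with no gene symbol, so entries were named by matching runs of lengths to GENCODE 29 coding genes (score at least 14). Decoy genes with randomly shifted lengths matched at 0.991% of the number of true matches in the first step. In the second step, 27 decoys matched in the first round alone, against 8222 true matches over up to 4 rounds (0.328%). Of 4111 decoys tried as in later rounds, 20 matched. In a simulated file, 10 of 15029 matched genes were wrong. It was built from the same GENCODE 29 genes in order, with some transcripts left out and some lengths replaced. The annotation release behind the deposited entries was not available, so this is not their naming error rate. The entry with the highest count over 16 libraries stood for each gene.

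Counts of the 8 DMSO libraries were tested with edgeR 4.0.16 in R 4.3.3 (robust quasi-likelihood, TMM scaling, filterByExpr with minimum count 10, 2-sided, Benjamini-Hochberg adjusted p under 0.05 over all tested genes). In counts simulated for this comparison, 62.2% of 2-fold and 89.9% of 4-fold changes were recovered among 10002 genes. There, all lines had equal means apart from 200 genes changed in NCI-H1650. In the data 68.9% of tested genes were called, so these rates may not carry over. The libraries labelled NCI-H521 in one field were grouped by title. Members and lists were chosen with earlier results of these data known. Named genes were the 15 largest called changes each way averaging at least 10 CPM, up to 6 called members each way per list, and members central to a list. Alternatives were RLE scaling, DESeq2 1.42.0, filters, other library sets, the replicate block, thinning and stricter naming. Overlapping genes, close paralogs and pseudogenes may share reads. Some genes are not reported here.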

Additional observations from a re-analysis of the deposited data

Results flagged for a closer look

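HK2, DHCR7 and TFEB were called higher in NCI-H1650 under DMSO, and in the libraries treated with RocA their levels were lower in NCI-H1650 at both doses. They were picked out by a log2 difference of at least 1 in the opposite direction, computed with a pseudocount. They are not the only genes whose sign was not kept. Of called genes with at least 20 counts over both treated libraries, 3752 of 4159 kept it at 0.3 µM. At 3 µM, 2538 of 2820 did. DHCR7 and TFEB had fewer than 20 counts at both doses. There is 1 library per line and dose, with 204952 and 68660 named footprints in NCI-H1650 at 0.3 and 3 µM, and the change between treatments was not tested.

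HK2, hexokinase 2, had a log2 fold change of 0.37 under DMSO. It was not called without NCI-H1650 replicate 1 (0.23, adjusted p = 0.293) or without Hs 936.T replicate 2 (0.28, adjusted p = 0.146). At 0.3 µM it had 7 counts in NCI-H1650 against 85 in Hs 936.T, or 32.8 CPM against 119 CPM. At 3 µM it had 1 count in NCI-H1650 against 26 in Hs 936.T.

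DHCR7, an enzyme of cholesterol synthesis, had a log2 fold change of 1.11 under DMSO. Its counts were 0 in NCI-H1650 against 19 in Hs 936.T at 0.3 µM, and 0 against 10 at 3 µM.

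TFEB, a transcription factor of lysosomal genes, had a log2 fold change of 2.07 under DMSO, and DESeq2 did not call it (adjusted p = 0.0823). It was not called without NCI-H1650 replicate 1 (1.40, adjusted p = 0.211) or without Hs 936.T replicate 1 (1.24, adjusted p = 0.0888), and had 3.78 without Hs 936.T replicate 2. Its counts were 0 in NCI-H1650 against 2 in Hs 936.T at 0.3 µM, and 0 against 4 at 3 µM, too few to set a fold.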

How the results depend on the processing

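No main call changed direction under another scaling, filter, tool, set of libraries or thinning, and 4 did when the entry was chosen over the 4 libraries alone. With names scored 20 or more, 1356 genes were called higher and 1321 lower of 3833 tested. With genes named by length alone, added once the data had been seen, these were 1987 and 1977 of 5733. Fewer genes were tested under both. Calls of at least 2-fold numbered 2256 lower. DESeq2 called 3350 higher and 2777 lower, and the share of calls that were higher ran between 49.7% and 54.7% over the alternatives, and was 55.3% among calls of at least 2-fold. Of the genes named in the text, DESeq2 called ALDH3A1 (log2 fold change 9.66, adjusted p = 0.000123) and UCHL1 (8.68, adjusted p = 0.00431). It did not call CEACAM5, DST, MAGEC1, SCG3 or TFEB (adjusted p = 0.199, 0.0967, 0.129, 0.0652 and 0.0823). RLE scaling moved the median of all genes to 0.08.

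Leaving out one library at a time gave 3201 to 3394 genes higher and 3098 to 3236 lower. Of 25 named genes with 1 to 3 counts in a line, 21 had a changed call or moved by over 1.5 times without 1 of the libraries, 2 of them with a changed call and 0 with a changed sign. ALDH1A1 had log2 fold changes of -2.37 without NCI-H1650 replicate 1 and 2.66 without replicate 2, and MAGEA4 -7.0 and 2.34. With the replicate number as a block, 3693 genes were called higher and 3538 lower. Deviations of same-numbered libraries from the line means correlated at -0.0112 across genes. Counting error at low counts weakens such a correlation, so it cannot settle whether these libraries share more than a number. The depth of NCI-H1650 limits small differences: thinning every library to 792529 footprints left 3155 called higher and 2752 lower.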
